A study of Homo sapiens with 4 samples.

Results

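The polyamines putrescine, spermidine and spermine are small positively charged molecules that dividing cells need for nucleic acid function and translation. The genes of their synthesis and turnover were followed in OPM2 cells, an established human multiple myeloma line, after treatment with VS-5584, a drug-like compound that blocks mTOR and the class I PI3 kinases, which relay growth signals. The 10 genes were ODC1, AMD1, SRM and SMS (synthesis), OAZ2 and AZIN1 (the antizyme system), SAT1, SMOX and PAOX (turnover) and MTAP (salvage of the by-product). They were taken by name from the 18377 genes with a probe set annotated to exactly 1 gene. Each had a single such probe set, and all 10 were among the 11026 genes left after the dimmest 40% had been set aside.

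Cells given VS-5584 at 123 nM (2 arrays) were set against cells given only the solvent DMSO (2 arrays), all harvested at 24 h and grown in the same serum-containing medium. The series' design text gives the dose as 125 nM and places it below the IC50 of the line. The samples are titled biological replicates with no account of how the cultures were separated. The p-values therefore describe only these 4 samples of 1 cell line. For them limma pools the spread of each gene with that of all tested genes. All 8 plasma cell markers examined were among the tested genes, with intensities from 92.1 to 4731, and the T cell markers CD3D, CD3E, CD8A and CD2 lay between 30.8 and 39.8. The 4 myeloid markers lay between 24.6 and 77.6 and the 4 stromal markers between 23.2 and 84.8. Their tested members CD68, COL1A1 and COL1A2 were higher on both VS-5584 arrays than on both controls, as were 14.7% of all tested genes. The log2 differences were 0.23, 0.10 and 0.11, and none passed (limma adjusted p = 0.584, 0.799 and 0.767). Of the untested myeloid and stromal markers, CD14, CSF1R and PDGFRB were also higher on both, while LYZ and LUM overlapped.

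Ornithine decarboxylase, encoded by ODC1, makes putrescine from ornithine, and S-adenosylmethionine decarboxylase, encoded by AMD1, makes the aminopropyl donor. Spermidine synthase (SRM) and spermine synthase (SMS) then add aminopropyl groups in turn. Antizymes bind ornithine decarboxylase and send it to the proteasome, and the antizyme inhibitor AZIN1 holds them off. ODC1 is a classical target of the transcription factor MYC, and mTOR complex 1 is known from prostate cancer cells to stabilise the AMD1 protein, a step that an RNA measurement does not see.

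After 24 h of VS-5584 none of the 10 genes passed the test, and every difference was small. The lowest was that of SRM, whose intensity was 22.2% lower with VS-5584, followed by AZIN1 (18.2% lower) and MTAP (16.1% lower). The other 7 genes lay between 8.97% lower (ODC1) and 7.96% higher (PAOX). Limma called 0 of the 10 at an adjusted p under 0.05, against 0% of all tested genes, and 0 of the 10 had an unadjusted p under 0.05. Over all tested genes the unadjusted share was 8.93% for lower and 1.49% for higher genes, and 0 genes were called when each gene was tested without moderation. The 95% intervals of all 10 differences included 0 and stayed within 2-fold in both directions.

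**Figure D1:**
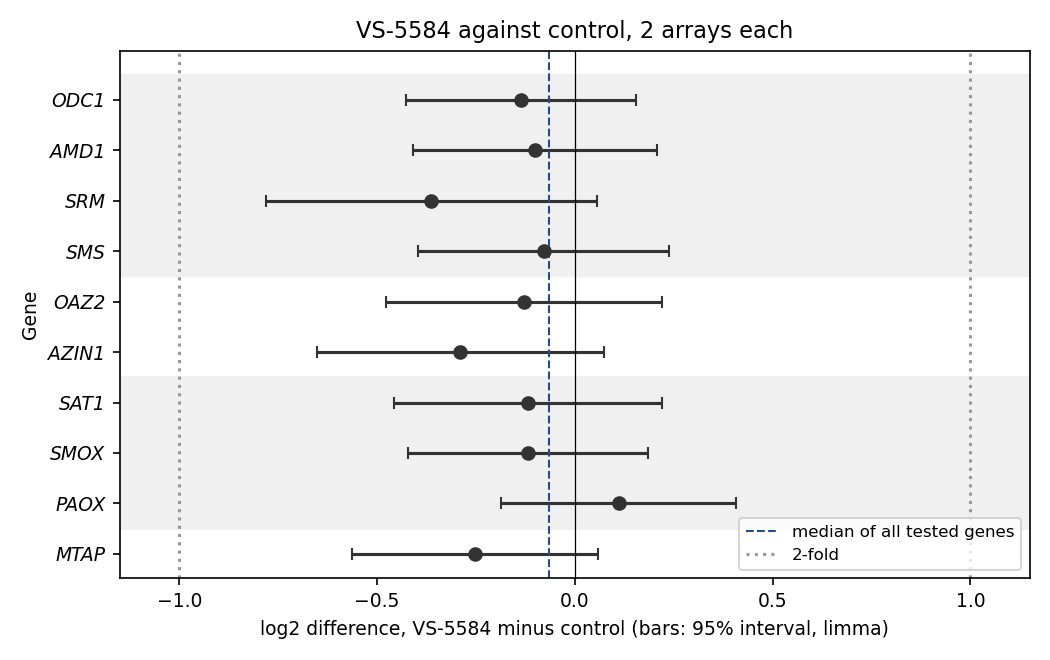
Log2 difference of VS-5584 minus control for each polyamine gene (2 arrays per group, rows in order of role: synthesis, antizyme system, turnover, salvage); points are limma estimates, bars 95% intervals, the dashed line the median of all 11026 tested genes and the dotted lines 2-fold. Every bar crosses 0 and none reaches 2-fold, and SRM lies furthest to the left at -0.36.

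ODC1 had intensities of 4347 and 4217 on the VS-5584 arrays, against 4800.0 and 4609 on the control arrays. Both VS-5584 values lay below both controls, and the replicates of each group were closer to each other than the groups were. The log2 difference was -0.14 ± 0.13 (SE), with a 95% interval of -0.43 to 0.15 (limma adjusted p = 0.721). This SE depended on the model. It was 0.037 in an ordinary two-sample test (adjusted p = 0.766) and 0.062 with an intensity trend (limma adjusted p = 0.385).

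AMD1 had 941 and 901 with VS-5584, against 1058 and 922 in control cells. The groups overlapped, because VS-5584 replicate 1 lay above control replicate 2. The log2 difference was -0.10 ± 0.14 (SE), with an interval of -0.41 to 0.21, and it was positive (0.011 to 0.021) when the arrays were scaled again by median centring, cyclic loess or quantiles.

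SRM had 583 and 405 with VS-5584, against 684 and 572 in control cells. Only VS-5584 replicate 2 lay below both controls, and the 2 VS-5584 arrays differed from each other by 0.52 on the log2 scale, more than the group means did. The log2 difference was -0.36 ± 0.19 (SE), with an interval of -0.78 to 0.06 (limma adjusted p = 0.530). Without VS-5584 replicate 1 it was -0.63 and passed (limma adjusted p = 0.0102, the lone array being assumed to vary like the controls), as did 23.9% of all tested genes in that fit. Without VS-5584 replicate 2 it was -0.10 (limma adjusted p = 0.963).

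SMS had 581 and 496 with VS-5584, against 591 and 545 in control cells. VS-5584 replicate 1 lay between the controls and replicate 2 below them. The log2 difference of -0.08 ± 0.14 (SE), with an interval of -0.40 to 0.24, turned positive under each of the 3 further scalings (0.037 to 0.075). It also did so without VS-5584 replicate 2 (0.034).

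MYC itself, the known activator of ODC1, had intensities of 856 and 932 with VS-5584, against 775 and 1009 in control cells. Both VS-5584 values lay between the controls (log2 difference 0.015 ± 0.16, SE). MYC and its partner MAX bind the E-box CACGTG. This palindrome was searched, reading the same on both strands, in RefSeq windows (GRCh38.p14) from 250 bases before to 50 bases after annotated start sites. Windows were at hand for 7 of the 10 genes, and 2 of these, SRM and ODC1, held it, as did 12.7% of the 8883 tested genes with a window. ODC1 has 2 annotated starts, and its matches stand around the second, downstream start. The sequences upstream of SRM and of both ODC1 starts are shown because SRM had the lowest difference of the 10 genes and ODC1 is the first enzyme of the pathway. Capitals mark the E-box, and a match describes the letters only.
SRM, 250 bases before the start, chr1:11060019-11060268, minus strand: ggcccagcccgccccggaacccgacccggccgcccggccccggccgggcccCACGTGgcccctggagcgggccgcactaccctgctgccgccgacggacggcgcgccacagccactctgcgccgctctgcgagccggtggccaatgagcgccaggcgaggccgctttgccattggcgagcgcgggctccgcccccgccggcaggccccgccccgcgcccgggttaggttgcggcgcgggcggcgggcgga
ODC1, 250 bases before the first start, chr2:10448328-10448577, minus strand: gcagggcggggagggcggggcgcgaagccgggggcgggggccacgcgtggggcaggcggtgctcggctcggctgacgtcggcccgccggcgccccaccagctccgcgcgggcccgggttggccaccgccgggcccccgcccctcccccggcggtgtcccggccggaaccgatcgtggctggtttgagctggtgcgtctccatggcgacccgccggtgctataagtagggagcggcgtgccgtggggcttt
ODC1, 105 bases around the second start, chr2:10447998-10448102, minus strand: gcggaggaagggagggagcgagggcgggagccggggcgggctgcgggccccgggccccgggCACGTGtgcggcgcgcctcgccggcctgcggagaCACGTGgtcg
The E-box of SRM begins 199 bases before its start. The windows of AMD1, SMS, SAT1, OAZ2 and MTAP did not hold these letters.

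OAZ2, antizyme 2, had intensities of 151 and 132 with VS-5584, against 138 and 172 in control cells. The controls differed from each other by 0.32 on the log2 scale, more than the VS-5584 arrays did (0.20) and more than the groups (-0.13 ± 0.16, SE, interval -0.48 to 0.22). The sign turned after cyclic loess (0.024) and quantile scaling (0.025), and without control replicate 2 (0.032).

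AZIN1 resembles ornithine decarboxylase but has no decarboxylase activity, and it frees the enzyme from antizyme. It had 583 and 453 with VS-5584, against 678 and 582 in control cells. VS-5584 replicate 1 was level with control replicate 2, and replicate 2 lay below both controls. The log2 difference was -0.29 ± 0.16 (SE), with an interval of -0.65 to 0.07 (limma adjusted p = 0.555). As with SRM, it passed without VS-5584 replicate 1 (-0.47, limma adjusted p = 0.0279, on the same assumption) and stood at -0.11 without VS-5584 replicate 2 (limma adjusted p = 0.951).

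**Figure D2:**
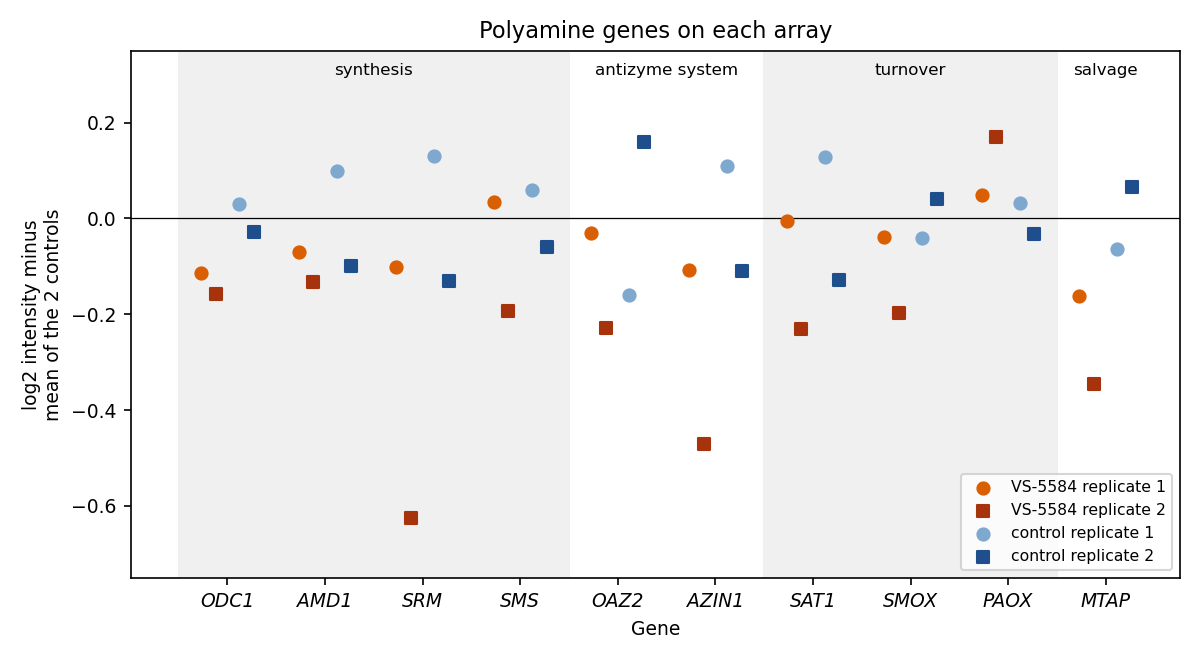
Log2 intensity of each polyamine gene on each array minus the mean of its 2 controls, with VS-5584 replicates in orange and red and control replicates in light and dark blue, grouped by role. VS-5584 replicate 2 (red squares) lies below both controls for 9 of the 10 genes and VS-5584 replicate 1 (orange circles) for 2.

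SAT1 acetylates spermidine and spermine, the step that commits them to export or breakdown. Its intensities were 58.2 and 49.7 with VS-5584, against 63.8 and 53.4 in control cells. Replicate 1 was the higher array in both groups, and the difference between the controls (0.26, log2) exceeded that between the groups (-0.12 ± 0.15, SE, interval -0.46 to 0.22). The sign turned without control replicate 1 (0.010).

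SMOX, spermine oxidase, turns spermine back into spermidine and yields hydrogen peroxide. It had 60.4 and 54.2 with VS-5584, against 60.4 and 63.8 in control cells. VS-5584 replicate 1 lay between the controls and replicate 2 below them (log2 difference -0.12 ± 0.14, SE, interval -0.42 to 0.18).

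PAOX, the peroxisomal oxidase of acetylated polyamines, was the 1 gene of the 10 that was higher on average. It had 56.7 and 61.7 with VS-5584, against 56.0 and 53.6 in control cells. Both VS-5584 values lay above both controls, VS-5584 replicate 1 by little (log2 difference 0.11 ± 0.13, SE, interval -0.19 to 0.41, limma adjusted p = 0.775). The intensities of SAT1, SMOX and PAOX lay not far above the filter limit of 48.9. Whether they exceeded background could not be called.

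MTAP cleaves the methylthioadenosine that SRM and SMS release and returns it towards methionine and adenine. It had 141 and 124 with VS-5584, against 151 and 165 in control cells. Both VS-5584 arrays lay below both controls. The log2 difference was -0.25 ± 0.14 (SE), with an interval of -0.56 to 0.06 (limma adjusted p = 0.552). RefSeq lists pseudogenes named after AMD1 (4), SRM (3), MTAP (2), ODC1 (1) and SMS (1), whose transcripts, if present, could share probe signal.

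Counted together, 9 of the 10 genes were lower on average with VS-5584, as were 62.7% of all tested genes. Both VS-5584 arrays lay below both controls for 2 genes, ODC1 and MTAP, against 29.2% of all tested genes. They lay above both controls for 1 gene, PAOX, against 14.7%. The median log2 difference of the 10 genes was -0.12, beside -0.06 over all tested genes. The 4 synthesis genes had a median of -0.12, as did the 3 turnover genes. With tested genes split by mean level into 4 bins of equal size, the brightest bin held 5 of the 10 genes. Its median difference was -0.13, with 76.6% of its genes lower on average. The bin below held 2 of the 10 (median -0.16, 79.0% lower) and the dimmest bin 3 (median 0.043, 37.1% lower). The 4 synthesis genes all lay in the brightest bin and the 3 turnover genes in the dimmest. Their like medians of -0.12 thus stand beside unlike bin medians, -0.13 and 0.043. With an array left out, the VS-5584 values lay below the controls for 4 of the 10 genes without control replicate 1 (42% of all tested genes), 7 without control replicate 2 (43.3%) and 9 without VS-5584 replicate 1 (60.1%).

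**Figure D3:**
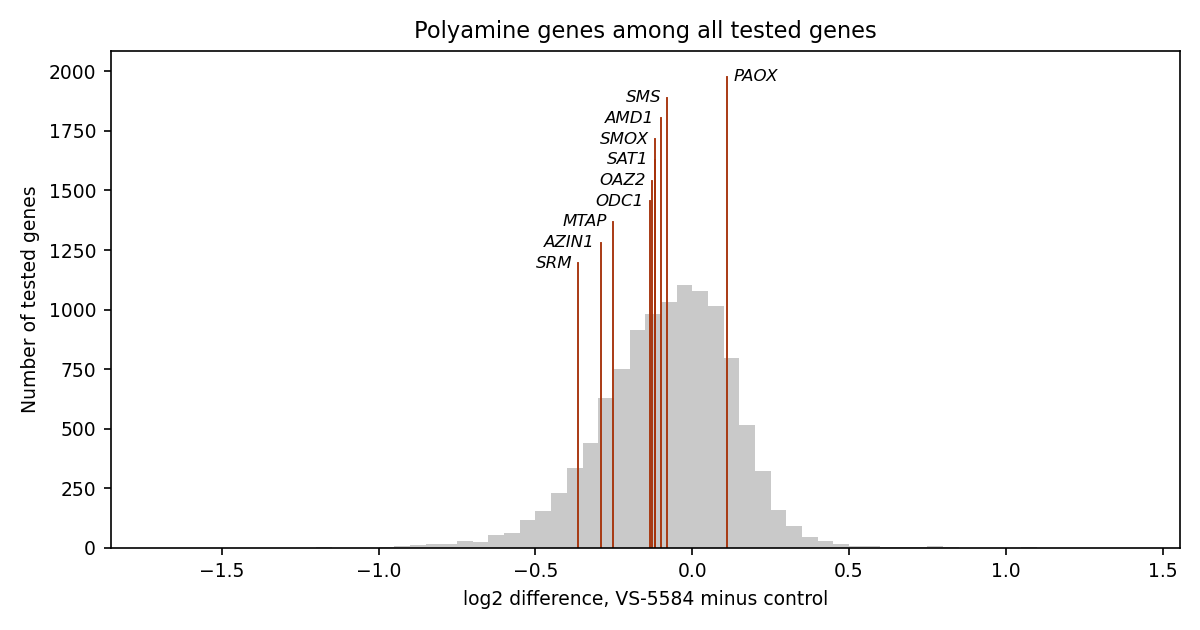
Distribution of the log2 difference, VS-5584 minus control, over the 11026 tested genes (grey, bins of equal width, number of genes on the vertical axis), with a red line for each polyamine gene. SRM lies furthest to the left, with 8.75% of tested genes below it, and PAOX to the right of 83.3% of them.

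VS-5584 replicate 2 stood apart from the other arrays. Its log2 values were squeezed together (1.74 units between the quartiles, against 1.93 to 1.95 on the other arrays). The median of the 10 genes was -0.21 on this array and -0.05 on VS-5584 replicate 1, relative to the control mean. Over all tested genes these medians were -0.14 and -0.0022. VS-5584 replicate 2 lay below both controls for 9 of the 10 genes, against 60.1% of tested genes. VS-5584 replicate 1 did so for 2 of the 10, against 34.6%.

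The shift on VS-5584 replicate 2 went with brightness. When tested genes were split by mean level into 4 bins of equal size, the median on this array was 0.056 in the dimmest bin and -0.23 in the brightest, where ODC1, AMD1, SRM, SMS and AZIN1 lay. OAZ2 and MTAP lay in the bin below that one, whose median on this array was -0.30. On the same array SRM stood at -0.63, AZIN1 at -0.47 and MTAP at -0.34, below the medians of their bins, while ODC1 (-0.16), AMD1 (-0.13), SMS (-0.19) and OAZ2 (-0.23) stood above them. Of the genes in the dimmest bin, SAT1 (-0.23) and SMOX (-0.20) stood below its median on this array and PAOX (0.17) above it. The part of brightness in the members' differences was not tested beyond the scalings. After cyclic loess, 6 of the 10 genes remained lower on average. SRM was still the lowest at -0.21, while ODC1 (-0.15), SAT1 (-0.15), SMOX (-0.14) and AZIN1 (-0.14) then lay close together and MTAP stood at -0.10.

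**Figure D4:**
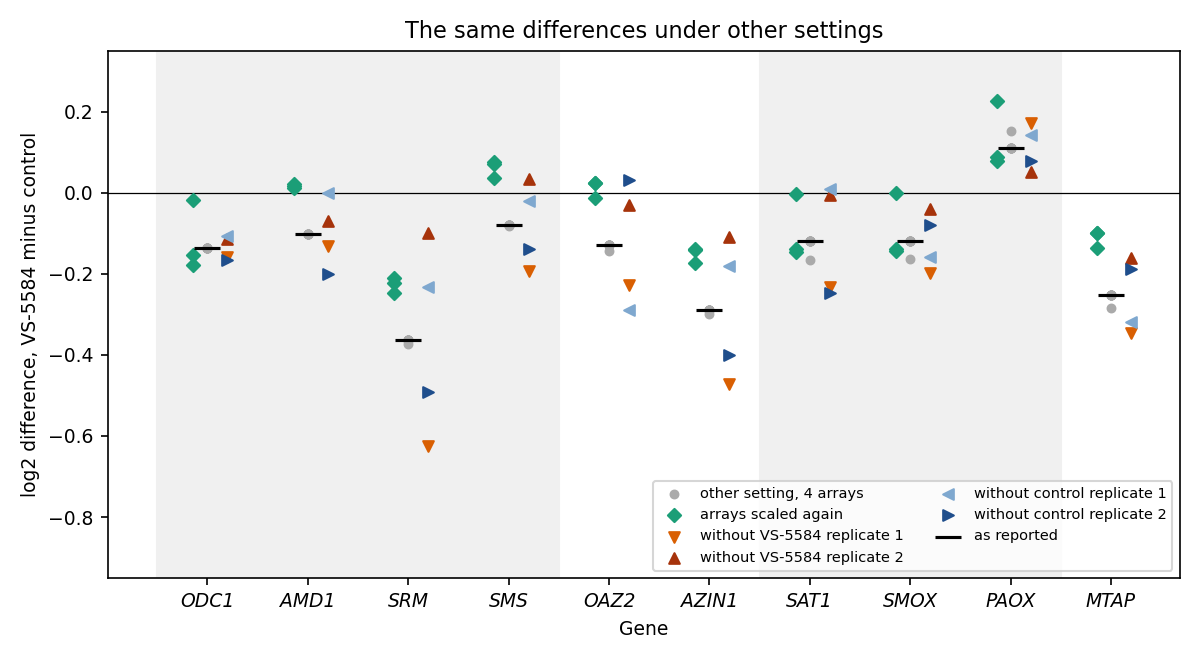
Log2 difference, VS-5584 minus control, of each polyamine gene as reported (black bar), with the arrays scaled again by median centring, cyclic loess or quantiles (green diamonds), without each array in turn (coloured triangles) and under the other settings on 4 arrays (grey). SRM ranges from -0.63 to -0.10 and AZIN1 from -0.47 to -0.11, while AMD1, SMS, OAZ2 and SAT1 have values on both sides of 0.

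Genes that feed the pathway or use its products were examined in 5 lists of 49 genes in all, of which 43 were analysed and 29 tested. Limma called 0 of the 29 in either direction, and 4 had an unadjusted p under 0.05, each lower with VS-5584. Over all tested genes this unadjusted share was 8.93% for lower and 1.49% for higher genes. Both VS-5584 arrays lay below both controls for 11 of the 29, against 29.2% of all tested genes, and above them for 1, against 14.7%. The median log2 difference was -0.17 over the 29 genes. It was 0.0018 on VS-5584 replicate 1 and -0.30 on replicate 2. The shares over all tested genes given for these lists are not matched for brightness. By mean level, the share of tested genes lower on average was 37.1% in the dimmest bin and 76.6% in the brightest. Without VS-5584 replicate 1, 25 of the 29 lay below both controls, against 60.1% of all tested genes, and 7 passed, against 23.9%. Without VS-5584 replicate 2, 12 of the 29 lay below both controls, against 34.6% of all tested genes, and 11 above them, against 33.3%. In that fit none of the genes named from these lists passed.

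In the arginine, ornithine and proline list, 7 of 8 tested genes had a lower mean with VS-5584, against 62.7% of all tested genes. The median difference was -0.20. OAT, the mitochondrial aminotransferase that interconverts ornithine and glutamate semialdehyde, had intensities of 273 and 187 with VS-5584, against 348 and 301 in control cells. Both VS-5584 arrays lay below both controls, replicate 2 far below. The log2 difference was -0.52 ± 0.19 (SE; interval -0.93 to -0.10, limma adjusted p = 0.417). It was -0.79 without VS-5584 replicate 1 (limma adjusted p = 0.0034) and -0.24 without VS-5584 replicate 2 (limma adjusted p = 0.774). ALDH18A1, which makes glutamate semialdehyde from glutamate, had 222 and 152 with VS-5584, against 239 and 263 in control cells. The groups did not overlap (log2 difference -0.45 ± 0.18, SE, limma adjusted p = 0.452). It was -0.72 without VS-5584 replicate 1 (limma adjusted p = 0.0040) and -0.17 without VS-5584 replicate 2 (limma adjusted p = 0.876).

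The methionine cycle and salvage list supplies S-adenosylmethionine and takes up the product of MTAP. All 11 of its tested genes had a lower mean with VS-5584, against 62.7% of all tested genes. The median difference was -0.17. The medians were 0.0018 on VS-5584 replicate 1 and -0.33 on replicate 2. ENOPH1, an enzyme of methionine salvage downstream of MTAP, had 623 and 553 with VS-5584, against 668 and 760.2 in control cells, without overlap (-0.28 ± 0.14, log2, SE). AHCYL1, a relative of adenosylhomocysteinase, differed by -0.26 ± 0.14 (SE), also without overlap. The limma adjusted p was 0.522 for ENOPH1 and 0.542 for AHCYL1. Without VS-5584 replicate 1 the log2 differences of ENOPH1 and AHCYL1 were -0.37 and -0.34. Without VS-5584 replicate 2 they were -0.19 and -0.18.

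Of the hypusine list 2 genes were tested, DHPS and DOHH. Of these 1, DHPS, had a lower mean with VS-5584, as did 62.7% of all tested genes. DHPS, deoxyhypusine synthase, moves the aminobutyl group of spermidine onto the translation factor eIF5A. It had 278 and 228 with VS-5584, against 302 and 318 in control cells. The groups did not overlap (log2 difference -0.30 ± 0.15, SE, limma adjusted p = 0.507). It was -0.45 without VS-5584 replicate 1 (limma adjusted p = 0.0247) and -0.16 without VS-5584 replicate 2 (limma adjusted p = 0.887).

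Of 6 tested genes in the polyamine transport list, 5 had a lower mean with VS-5584, against 62.7% of all tested genes. The median difference was -0.12. SLC3A2, the heavy chain of several amino acid exchangers that has also been tied to polyamine export, had 198 and 147 with VS-5584, against 209 and 248 in control cells. CAV1, the coat protein of caveolae, had 918 and 815 with VS-5584, against 1047 and 1173 in control cells. In neither did the groups overlap, and the log2 differences were -0.42 ± 0.17 and -0.36 ± 0.14 (SE; limma adjusted p = 0.454 and 0.437). Without VS-5584 replicate 1 they were -0.63 and -0.44 (limma adjusted p = 0.0092 and 0.0303, the lone array again being assumed to vary like the controls). Without VS-5584 replicate 2 they were -0.20 and -0.27 (limma adjusted p = 0.868 and 0.713). Of the other polyamine genes SAT2 and OAZ1 were tested, and both had a lower mean with VS-5584, as did 62.7% of all tested genes. SAT2, a relative of SAT1, differed by -0.19 ± 0.14 (SE, limma adjusted p = 0.649). It had 110 and 92.0 with VS-5584, against 113 and 117 in control cells, without overlap. The difference was -0.32 without VS-5584 replicate 1 and -0.06 without VS-5584 replicate 2.

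**Figure D5:**
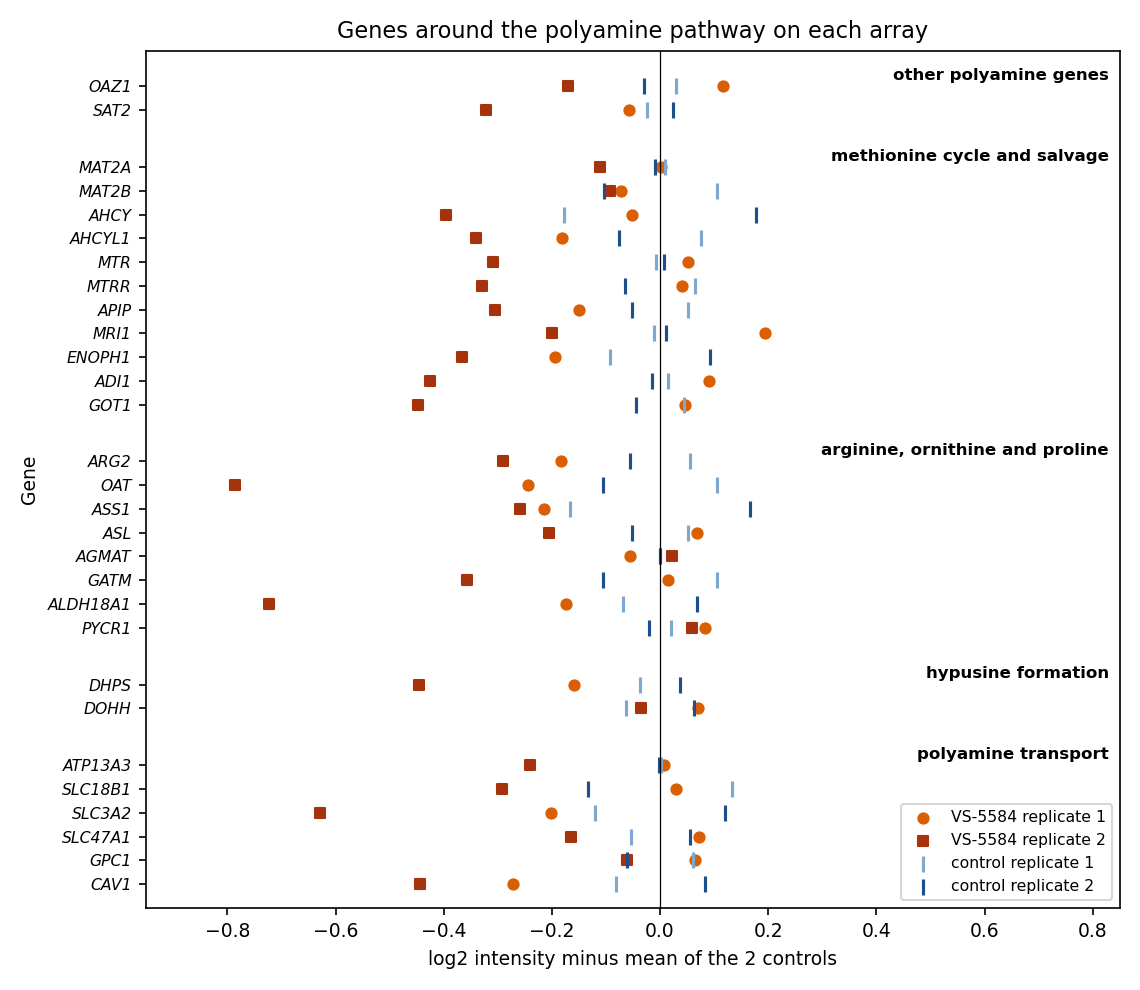
Log2 intensity minus the mean of the 2 controls for the 29 tested genes of the 5 related lists, with VS-5584 replicate 1 as orange circles, VS-5584 replicate 2 as red squares and the controls as blue ticks. The red squares lie left of the orange circles for every gene but AGMAT, and furthest left for OAT, ALDH18A1 and SLC3A2.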

How the data were processed

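RNA of 4 OPM2 samples was measured on one-colour whole-transcript arrays. For each of 28869 probe sets the deposited table gives an intensity on every array. The authors used RMA, per the submitters' processing notes. The deposited intensities are linear and differ in distribution between arrays. The sources used here do not say how they follow from RMA, or whether a constant was added, which would shrink differences of dim genes. No probe set could be called above background, since scanner files were not used. Precision is limited by the number of arrays.

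Intensities were turned into log2 values and not normalized again. Of 19310 probe sets with exactly 1 gene, 19279 took their symbol from RefSeq (GRCh38.p14) by gene ID. Each gene kept its probe set with the highest mean, and the 40% of genes with the lowest mean (below an intensity of 48.9) were left out. The main test was limma's (version 3.58.1 in R 4.3.3, lmFit then eBayes with no trend). P-values were two-sided and adjusted by Benjamini-Hochberg over all 11026 tested genes, with a threshold of 0.05. SEs and 95% intervals are those of this model. It draws the variance of each gene towards that of all tested genes (prior degrees of freedom 7.42). An exact permutation test of 2 against 2 cannot go below p = 0.333 and was not used. The code was tested on simulated data.

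The members and lists were chosen with earlier results of these data known. Named are all 10 members, MYC, and from each related list the 2 tested genes with the largest absolute difference (1 where fewer than 4 were tested). Alternatives were the replicate number as a block, 3 scalings, 3 filters, an intensity trend, 2 treatments of probe sets, subtraction of 16, an ordinary two-sample test and leaving out each array. Figures were drawn with matplotlib 3.10.9.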

Additional observations from a re-analysis of the deposited data

How the results depend on the processing

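No polyamine gene passed under any of the 12 settings with 4 arrays, and SRM and AZIN1 passed in 1 of the 4 fits that left out an array, that without VS-5584 replicate 1, where 23.9% of all tested genes passed. Of 157 recomputed log2 differences 146 kept their sign. Many of these could not turn. The replicate block, the filters, the intensity trend and the ordinary test do not alter the difference of any gene. The 2 treatments of probe sets could not alter it here, because each polyamine gene had a single probe set. These settings left every difference as reported, so their kept signs are no support. All 11 values that turned came from the 3 scalings or from leaving out an array. AMD1 turned to 0.016 with median centring, 0.011 with cyclic loess and 0.021 with quantiles, SMS to 0.037, 0.072 and 0.075 in the same order, and OAZ2 to 0.024 with cyclic loess and 0.025 with quantiles. Leaving out each array gave -0.19 to 0.034 for SMS, -0.25 to 0.010 for SAT1 and -0.29 to 0.032 for OAZ2. The 3 dimmest genes, SAT1, SMOX and PAOX, gave no value with the lowest 60% left out. The cause of these shifts was not tested. Median centring took the median of all genes to 0.05, and left 1 polyamine gene below both controls. Without each array in turn that count was 2 to 9. Over all tested genes, 432 passed with the replicate block, 99 with median centring, 80 with an intensity trend, 58 with the lowest 60% left out, 2 with cyclic loess, 2 with quantiles and 2 with 16 subtracted, against 0 as reported (1149 at an unadjusted p under 0.05). An ordinary two-sample test called 0 (492 unadjusted). Leaving out each array gave 2 (without VS-5584 replicate 2) to 2636 (without VS-5584 replicate 1). Related genes below both controls numbered 12 to 25 without each array in turn, and those above both controls 2 to 11. Over all tested genes the shares in these fits were 34.6% to 60.1% below and 23.7% to 33.3% above. Related genes above both controls numbered 7 with median centring, 3 with cyclic loess, 3 with quantiles, and 2 with no filter or with the lowest 20% left out. No share over all tested genes is given for these scalings and filters. Their counts, and the polyamine count after median centring, are therefore not read as results about the lists. Whether samples with the same replicate number were cultured together is not stated. Across genes, replicate 1 minus replicate 2 in the 2 groups correlated at r = 0.16, which does not settle it. Under the replicate block OAT passed (-0.52, limma adjusted p = 0.0313), and no polyamine gene did.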

Other observations

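Several genes tied to polyamines were among the dimmest 40% and were not tested. The testis antizyme gene OAZ3 had intensities of 42.5 and 44.3 with VS-5584, against 40.3 and 44.3 in control cells. AZIN2, a second antizyme inhibitor gene, had 35.5 and 40.6 with VS-5584, against 38.6 and 34.4 in control cells, and the groups overlapped for both genes. SLC12A8, from the transport list, had 45.2 and 48.5 with VS-5584, against 41.8 and 40.4 in control cells, so that both VS-5584 arrays lay above both controls. OAZ1, the widely expressed antizyme, was tested and had 602 and 493 with VS-5584, against 566 and 544 in control cells, with the VS-5584 values on either side of the controls. These 4 genes were chosen after their values were seen.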
